A study of Mus musculus with 6 samples.

Results

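Galectins are proteins that bind beta-galactoside sugars through a conserved carbohydrate recognition domain. They are made without a secretion signal, act in the cytosol and nucleus, and also leave the cell and cross-link glycoproteins on cell surfaces. Inside the cell, several of them bind glycans that become exposed when an endosome or lysosome breaks. The genes described here were 8 of the 24346 gene symbols in the tables, chosen by symbol: Lgals1, Lgals2, Lgals3, Lgals4, Lgals7, Lgals8 and Lgals9, which encode galectins, and Lgals3bp, which encodes a secreted glycoprotein that galectin-3 binds and is not itself a galectin. Their values in each library were the summed FPKM (fragment counts divided by transcript length and by the library's mapped fragments) of all transcripts of a symbol.

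The libraries were made from prostate luminal cells, the secretory epithelial cells lining the gland, isolated by FACS from C57BL/6 mice aged 4 months. The CSF1 group (titled PB, genotype over-expression of CSF1) carried a mouse Csf-1 transgene driven in prostate epithelium by a rat probasin promoter. The WT group came from wild-type littermates. Each group had 3 libraries, numbered 3, 5 and 8 in both groups, and the labels do not say whether each came from a separate animal, so a p-value here reflects the spread between libraries, which may be technical. The labels do not name the sort markers. As a check of the labels, Csf1 gave 1.54, 2.25 and 3.98 FPKM in the WT libraries against 1082, 1326 and 1678 FPKM in the CSF1 libraries. Wherever 3 values are given, they stand in the order of replicates 3, 5 and 8.

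The set was drawn up with this WT and CSF1 comparison known, so the differences of its members between the groups are a description and carry no test. Of the 8 genes, 7 passed the expression filter, which asked for 1 FPKM or more on average over all 6 libraries. Lgals2 did not. Among the 7, 6 were higher in every CSF1 library than in every WT library, where 34.7% of all 10951 tested genes were, and nothing is read from that count. Lgals7 passed the filter only through its CSF1 values. Errors after ± are SD over the 3 libraries of a group for FPKM. For log2 changes, which are CSF1 minus WT on the log2(FPKM + 1) scale, they are standard errors from a limma fit to all tested genes. Over all tested genes, the median log2 change was 0.17.

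Upstream sequences are shown for the 2 members whose start-site regions held a motif bound by interferon regulatory factors, the family of transcription factors that acts downstream of interferons. They are taken from RefSeq (GRCm38.p6), whose table matched 7 of the 8 members and had no entry for Lgals1. Each window searched held 250 bases before the transcription start and 50 after it. Both sequences are on the minus strand of chromosome 11, written 5′ to 3′, with the matched letters in capitals. The Lgals9 stretch is chr11:78984900-78985039, and the Lgals3bp stretch is chr11:118401960-118402036.
Lgals9: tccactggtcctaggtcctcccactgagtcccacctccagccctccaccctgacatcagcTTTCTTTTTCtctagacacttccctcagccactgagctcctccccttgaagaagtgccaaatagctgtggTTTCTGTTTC
Lgals3bp: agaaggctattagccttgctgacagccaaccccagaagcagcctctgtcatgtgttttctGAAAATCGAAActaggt
The Lgals9 capitals match the core of the interferon-stimulated response element, GAAANNGAAA, on the opposite strand. One match begins 55 bases before the start and the other at base 16 after it. This core, searched on both strands, was found in 1131 of 32851 promoter windows (3.44%) and in no other member. The Lgals3bp capitals match the same core with 1 more base in its gap, GAAANNNGAAA, beginning 17 bases before the start. That spacing was found in 2.75% of windows and in no other member. The RefSeq start used for the Lgals3bp window lies upstream of the locus listed with its FPKM, which begins at 118401931 on the minus strand. The match is therefore farther from the start of the listed locus. Both motifs were searched after these windows had been read. Of the other motifs searched on both strands, the NF-kB consensus (8.46% of windows) matched in Lgals3 and Lgals8. The GC box GGGCGG (35.7% of windows) matched in Lgals3, Lgals4 and Lgals7. The STAT element TTCNNNGAA (8.30%), the AP-1 element TGANTCA (7.81%), TATAAA (13.6%) and the androgen receptor recognition letters AGAACA (18.97%) had no match in any of the 7 windows. A match is a run of letters, and no binding was measured.

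Lgals3 was the most abundant galectin gene in all 6 libraries. It encodes galectin-3, a chimeric galectin with 1 recognition domain on a long flexible tail that lets it form pentamers, and was first known as the macrophage antigen Mac-2. On chromosome 14 (47373860 to 47386167, plus strand), it was at 78.7, 90.1 and 118 FPKM (WT) against 729, 773 and 1343 FPKM (CSF1). The groups lay far apart, and CSF1 replicate 8 stood well above the other two. Mean levels were 95.5 ± 20.1 FPKM in WT and 949 ± 343 FPKM in CSF1, a ratio of 9.94 and a log2 change of 3.26 ± 0.25. Lgals3 made up 64.4% ± 3.76 of the summed FPKM of the 8 genes in WT and 75.6% ± 5.07 in CSF1.

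Lgals3bp encodes a secreted scavenger receptor domain protein that binds galectin-3 and extracellular matrix and is known as an interferon-induced gene. On chromosome 11 (118392752 to 118401931, minus strand), it was at 14.5, 28.6 and 29.1 FPKM (WT) against 104, 98.7 and 118 FPKM (CSF1). All CSF1 values exceeded all WT values, and WT replicate 3 was the low library of its group. Its mean was 24.1 ± 8.30 FPKM in WT and 106.9 ± 9.79 FPKM in CSF1, a ratio of 4.44 and a log2 change of 2.17 ± 0.25. The 3 CSF1 libraries differed by 1.19-fold at most.

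Lgals1 and Lgals7 encode prototype galectins, with a single recognition domain that pairs into dimers. Galectin-1 is abundant in mesenchymal and endothelial cells and dampens T cell responses. On chromosome 15 (78926725 to 78930465, plus strand), Lgals1 was at 3.31, 2.92 and 5.33 FPKM (WT) against 74.2, 126 and 86.5 FPKM (CSF1). The lowest CSF1 library was 13.9 times the highest WT library. Means were 3.86 ± 1.29 FPKM (WT) and 95.6 ± 27.1 FPKM (CSF1), and the log2 change of 4.31 ± 0.25 was the largest of the 7 tested members. RefSeq also lists a Lgals1 pseudogene, and reads shared with it were not measured.

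Lgals7 encodes galectin-7, known from keratinocytes and other stratified epithelia and induced by p53. On chromosome 7 (28864386 to 28866284, plus strand), it was at 0.655, 0.821 and 0.768 FPKM (WT) against 17.8, 9.59 and 26.8 FPKM (CSF1). The WT libraries were all close to 0, and the CSF1 libraries differed by 2.79-fold among themselves. The mean was 0.748 ± 0.0849 FPKM in WT and 18.1 ± 8.60 FPKM in CSF1, with a log2 change of 3.34 ± 0.32. At such a level the WT values are imprecise: in WT replicate 3, Cufflinks' own confidence interval in the authors' table ran from 0.192 to 1.12 FPKM. The log2 change was 4.31 with a pseudocount of 0.1 and 1.93 with a pseudocount of 5.

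Lgals2 encodes another dimeric galectin, found mainly in the gut. It was listed at 0 in all 6 libraries, with upper bounds of Cufflinks' interval between 0.0773 and 0.195 FPKM. One of its exons overlaps an exon of Cdc42ep1 on the opposite strand in GENCODE.

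The tandem-repeat galectins, which carry a pair of different recognition domains joined by a linker, were Lgals9, Lgals8 and Lgals4. Galectin-9, an interferon-inducible member and a ligand of the T cell receptor Tim-3, is encoded by Lgals9 on chromosome 11 (78962979 to 78984924, minus strand). Lgals9 was at 1.69, 2.68 and 2.90 FPKM (WT) against 51.7, 35.4 and 51.8 FPKM (CSF1). Every CSF1 library was at least 12.2 times the highest WT library. The mean was 2.42 ± 0.646 FPKM in WT and 46.3 ± 9.46 FPKM in CSF1, a log2 change of 3.79 ± 0.21. Its start-site stretch is the first of the sequences printed above.

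Lgals8 encodes galectin-8, which flags ruptured endosomes and recruits autophagy receptors to them. On chromosome 13 (12439402 to 12461738, minus strand), it was at 18.4, 18.7 and 15.04 FPKM (WT) against 21.1, 20.99 and 19.2 FPKM (CSF1). The groups did not overlap, but the lowest CSF1 library exceeded the highest WT library by a factor of only 1.02. The mean was 17.4 ± 2.04 FPKM in WT and 20.4 ± 1.06 FPKM in CSF1, with a log2 change of 0.23 ± 0.14, close to the median of all genes. Under quantile normalization the difference turned to -0.047, and with median-ratio scaling it was 0.03. With either scaling, the groups overlapped and 5 members in place of 6 were higher without overlap. Exons of Lgals8 overlap those of Heatr1 on the opposite strand in GENCODE, and the library kits named in the labels do not mark strand, so reads of the shared part cannot be told apart.

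Lgals4 encodes galectin-4, known from the gut epithelium, where it takes part in lipid raft and apical transport. On chromosome 7 (28833794 to 28841703, plus strand), it was at 4.01, 5.32 and 2.62 FPKM (WT) against 2.97, 2.42 and 3.66 FPKM (CSF1). The groups overlapped, and the log2 change was -0.28 ± 0.24. The listed locus of Lgals6, a near copy of Lgals4 known from some mouse strains, lies inside that of Lgals4 (28834182 to 28841633), so the division of reads between them is uncertain. In GENCODE, exons of no other gene overlap those of Lgals4. Lgals6 was listed at 0, 0 and 1.65 FPKM (WT) against 1.16, 0.88 and 0 FPKM (CSF1). Summed over both symbols, levels were 4.01, 5.32 and 4.27 FPKM in WT and 4.13, 3.30 and 3.66 FPKM in CSF1, with a log2 difference of -0.23.

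**Figure D1:**
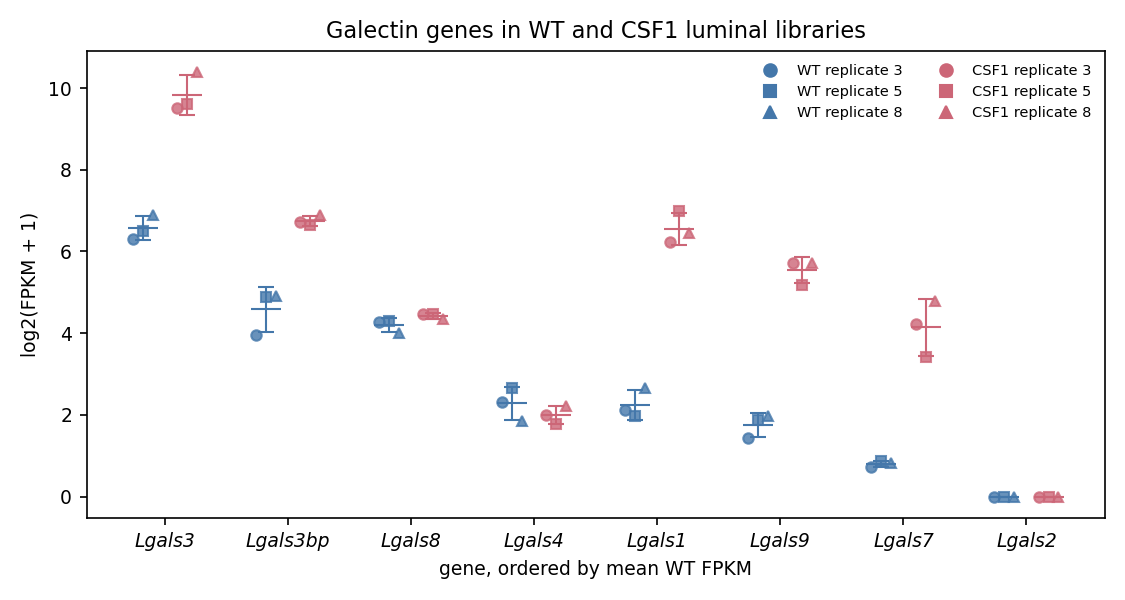
Level of each galectin gene as log2(FPKM + 1) on the vertical axis, with genes ordered by mean WT FPKM; points are single libraries, and horizontal ticks and bars are the mean ± SD of 3 libraries. Lgals1, Lgals3, Lgals3bp, Lgals7 and Lgals9 stand apart between the groups, Lgals8 and Lgals4 lie close together, and Lgals2 is listed at 0.

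FPKM is scaled to transcript length, so levels can be set beside each other across genes. In WT the order of mean FPKM was Lgals3, Lgals3bp, Lgals8, Lgals4, Lgals1, Lgals9, Lgals7 and Lgals2. Lgals3bp (14.5 to 29.1 FPKM) and Lgals8 (15.04 to 18.7 FPKM) overlapped, as did Lgals4 (2.62 to 5.32 FPKM) and Lgals1 (2.92 to 5.33 FPKM). The other neighbours in the WT order did not overlap. In CSF1 the order was Lgals3, Lgals3bp, Lgals1, Lgals9, Lgals8, Lgals7, Lgals4 and Lgals2. There Lgals3bp (98.7 to 118 FPKM) overlapped Lgals1 (74.2 to 126 FPKM), and Lgals8 (19.2 to 21.1 FPKM) overlapped Lgals7 (9.59 to 26.8 FPKM). The place of Lgals8 in the set therefore differed between the groups: it held 12.1% ± 3.26 of the members' summed FPKM in WT and 1.74% ± 0.509 in CSF1. The whole sum was 121, 149 and 173 FPKM in WT and 1001, 1067 and 1649 FPKM in CSF1.

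Of the members, Lgals3, Lgals8 and Lgals9 had more than 1 listed transcript. The 2 Lgals3 transcripts, of 1379 and 1406 bases, were used about equally throughout. The longer one's share of the gene's FPKM was 46.9%, 60.3% and 49.4% for WT against 52.02%, 46.8% and 53.2% for CSF1. These ranges overlapped, so the higher Lgals3 level in CSF1 was shared by both transcripts. For Lgals9, the shorter transcript (1493 bases) had a share of 0%, 100% and 100% in WT against 83.5%, 100% and 86.2% in CSF1, and the longer one (1586 bases) held the rest. WT replicate 3 alone had all its Lgals9 in the longer form, at a total of 1.69 FPKM. Of 5 listed Lgals8 transcripts, 3 were above 0 in any library. One of them, of 2522 bases and with its own start site, was the most used in all 6 libraries, with 44.9%, 55.8% and 59.8% in WT and 52.1%, 50.8% and 48.5% in CSF1. No transcript of Lgals3 or Lgals8 had shares that separated the groups. These shares are Cufflinks' estimates from reads that transcripts of a gene largely have in common.

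**Figure D2:**
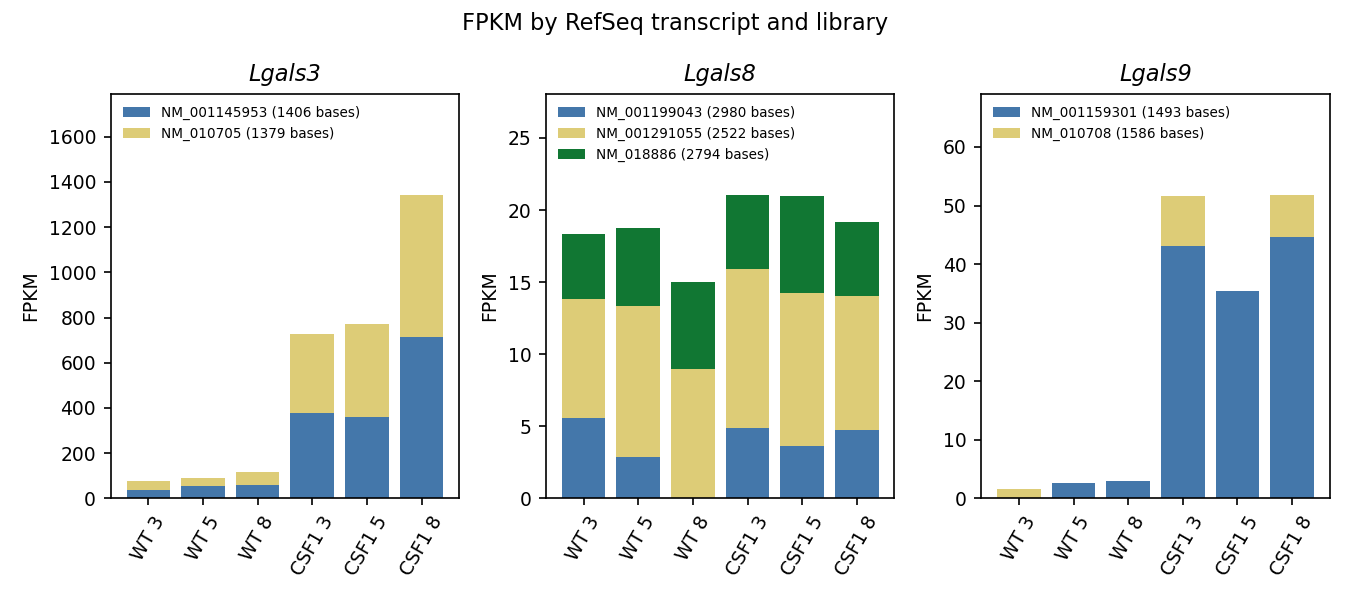
Stacked bars give FPKM per library on a linear vertical axis, with a colour for each RefSeq transcript of Lgals3, Lgals8 and Lgals9 that was above 0 in any library. The 2 Lgals3 transcripts share the level about equally, the shorter Lgals9 transcript carries most of the CSF1 signal, and Lgals8 totals stay between 15.04 and 21.1 FPKM.

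Galectins are also made by macrophages, fibroblasts and basal cells, and most listed markers of these cells were higher in the CSF1 libraries. Over all 10951 tested genes, 34.7% were higher and 13.1% lower in every CSF1 library than in every WT library. Of 16 macrophage markers, 15 were higher in every CSF1 library than in every WT library, and none was at 0 in all WT libraries. Their summed level was 28.0, 37.6 and 136 FPKM in WT and 892, 1115 and 3574 FPKM in CSF1. All 12 fibroblast and smooth muscle markers were higher without overlap, with sums of 100.1 to 111 FPKM in WT and 484 to 762 FPKM in CSF1. Dcn made up most of each sum, at 88.2 to 101.7 FPKM in WT and 394 to 522 FPKM in CSF1. No other marker of this list exceeded 5.56 FPKM in a WT library. Among 9 basal markers, 7 were higher without overlap, with sums of 62.5 to 75.96 FPKM in WT and 549 to 861 FPKM in CSF1. The exceptions were Dst and Trp63, the latter at 0.364, 0 and 0.0923 FPKM (WT) against 1.22, 1.12 and 0.338 FPKM (CSF1). All 8 endothelial markers were higher without overlap, from sums of 1.90 to 4.33 FPKM in WT to 14.97 to 18.2 FPKM in CSF1. Of 9 lymphocyte markers, 6 were higher without overlap, with sums of 0.500 to 1.12 FPKM in WT, where Ms4a1 and Klrb1c were listed at 0, and 7.20 to 24.0 FPKM in CSF1. Of 7 neutrophil markers in the tables, S100a8 and S100a9 were higher without overlap, with sums of at most 0.133 FPKM in WT and 1.40 to 32.2 FPKM in CSF1. S100a8, Ngp, Camp, Mpo and Retnlg were listed at 0 in WT. In CSF1, Ngp, Mpo and Elane were listed at 0, Camp reached 0.178 FPKM and Retnlg 1.57 FPKM. Most of the neutrophil sum of 32.2 FPKM in CSF1 replicate 8 was S100a8, at 26.8 FPKM. The luminal markers were present in all libraries: Krt8 ran from 1050 to 1721 FPKM in WT and from 1408 to 2334 FPKM in CSF1. Of 12 luminal markers, Epcam, Cdh1 and Tmprss2 were higher and Hoxb13 and Spdef lower without overlap. The neutrophil and luminal counts were near the shares over all tested genes, and nothing is read from them. In a library of sorted cells, more cells of a type and more RNA per cell cannot be told apart.

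Within the CSF1 group, marker sums and members differed between libraries to unlike degrees. From CSF1 replicate 3 to CSF1 replicate 8, the macrophage sum was 4.01 times higher, the neutrophil sum 23.0 times and the lymphocyte sum 3.13 times. The endothelial sum in replicate 8 was 1.03 times that in replicate 3, and the fibroblast and smooth muscle sum 0.784 times. Lgals3 was 1.84 times higher and Lgals7 1.51 times. Lgals1 (1.17 times), Lgals3bp (1.13 times) and Lgals9 (51.7 and 51.8 FPKM) were nearly level between those libraries. The basal sum was 1.51 times higher in replicate 8, and Krt14, Krt15 and Krt17 made up most of it. Other markers of that list were lower in replicate 8 than in replicate 3: Trp63 (0.278 times), Dst (0.715 times) and Itga6 (0.973 times). Lgals1 was highest in CSF1 replicate 5, the library in which the fibroblast and smooth muscle sum was also highest. Col1a1, a collagen gene of fibroblasts, was at 13.2, 25.5 and 6.75 FPKM. Of that list, only Myh11 (2.92, 1.38 and 0.868 FPKM) and Cnn1 (3.07, 2.70 and 2.94 FPKM) were not highest in replicate 5. In replicate 8, Lgals1 was above its replicate 3 level, while the fibroblast and smooth muscle sum and Col1a1 were below theirs. In WT, the macrophage sum was 28.0, 37.6 and 136 FPKM, and Lgals3 was at 78.7, 90.1 and 118 FPKM. Lgals3 and the macrophage sum ran in the same order of libraries within each group, with replicate 8 highest. Without CSF1 replicate 8, the log2 change of Lgals3 was 2.98. The part of these other cells in the galectin differences was not tested.

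**Figure D3:**
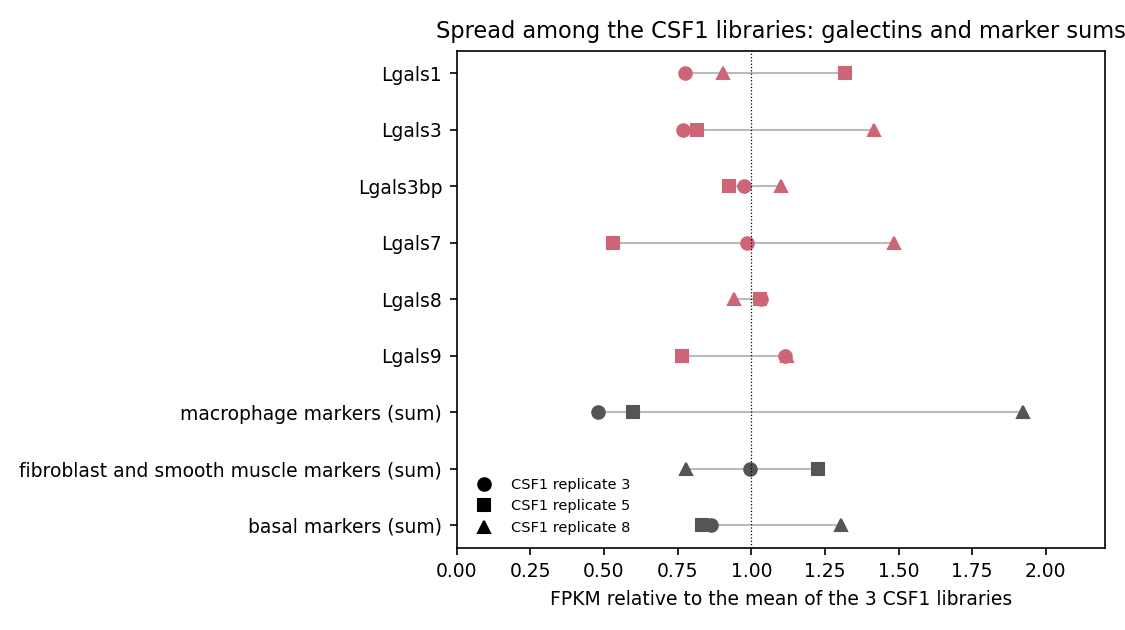
Each row gives the FPKM of a galectin gene (red) or the summed FPKM of a marker list (grey) in the 3 CSF1 libraries, divided by the mean of those libraries, on a linear horizontal axis. Of the rows plotted, the macrophage sum spreads widest, with replicate 8 at the top, while Lgals3bp and Lgals8 stay close to 1.

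The genes with the profile most like a member's over the 6 libraries were found for the 3 most abundant members, by Pearson correlation of log2(FPKM + 1). For Lgals3 they were Smox, a polyamine oxidase gene (r = 0.9995), Cd9, which encodes a tetraspanin (0.999), and the neuropeptide gene Calcb (0.999). For Lgals3bp they were the chemokine gene Cxcl17 (0.998), H2-K2, which is listed as an MHC class I gene (0.998), and Tnfaip3, which encodes a brake on NF-kB signalling (0.997). For Lgals1 they were Dusp4, a MAP kinase phosphatase gene (0.9995), Gfpt2, which encodes an enzyme of the hexosamine pathway (0.9995), and Gem, a small GTPase gene (0.999). Such values are not rare here, since the libraries form a pair of separate groups and 1333, 760 and 1138 genes had r of at least 0.95 with Lgals3, Lgals3bp and Lgals1. No p is given.

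Galectin family genes outside the set stayed low. Lgalsl, which encodes a galectin-like protein, was at 1.73, 2.48 and 4.32 FPKM (WT) against 2.72, 2.91 and 3.13 FPKM (CSF1), and did not pass (log2 change 0.08, limma adjusted p = 0.84). Lgals12, known from fat cells, was at 0.801, 0.989 and 0.984 FPKM (WT) against 0.726, 0.927 and 0.658 FPKM (CSF1) and was below the filter. Grifin, a lens gene, was listed at 0 in WT and reached 0.211 FPKM in CSF1.

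Genes that make, cap or carry galectin ligands were tested with all 10951 genes by limma (Benjamini-Hochberg adjusted p under 0.05), which called 24.9% of genes higher in CSF1 and 7.47% lower. In either direction it called 32.4%. The share of called genes that were higher was 76.95% for unscaled FPKM, 41.8% under quantile normalization and 56.0% under median-ratio scaling. Over all tested genes the median became -0.16 under quantile normalization and -0.01 under median-ratio scaling.

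Among the enzymes that build branched N-glycans, poly-N-acetyllactosamine and core O-glycans, 18 of 26 were tested: 6 rose, 0 fell and 12 missed the threshold. The median log2 change was 0.38. B4galt5, which encodes a galactosyltransferase, rose from 0.316 ± 0.157 to 8.53 ± 3.23 FPKM, with a limma adjusted p of 0.000167 and a log2 change of 2.80 ± 0.28. Mgat4a, which encodes an N-glycan branching enzyme, rose from 0.134 ± 0.115 to 5.31 ± 1.16 FPKM, with a limma adjusted p of 0.000104 and a log2 change of 2.46 ± 0.22. Both passed the filter only through CSF1. B3gnt3, which extends lactosamine chains, rose from 7.17 ± 1.70 to 18.04 ± 3.67 FPKM, and Gcnt2, which branches them, from 7.31 ± 1.62 to 16.8 ± 3.03 FPKM (limma adjusted p = 0.0031 and 0.00373). Mgat5, the branching enzyme whose products galectin-3 binds well, was at 1.81, 2.03 and 2.85 FPKM (WT) against 2.54, 1.08 and 2.14 FPKM (CSF1) and did not pass (limma adjusted p = 0.66). Man2a2, which trims mannose before branching, had a limma adjusted p of 0.0376 and lost its call when any single library was left out, with the replicate number as a block (0.0548), with no filter (0.0503), and under median-ratio scaling (0.121) or quantile normalization (0.482). Its log2 change of 0.54 became 0.15 with the last of these. B3gnt7, which also extends lactosamine chains, gained a call under the block (limma adjusted p = 0.0427). C1galt1, called higher, lost its call under quantile normalization (limma adjusted p = 0.0899). C1galt1c1 was at 34.4 ± 2.95 FPKM in WT and 26.4 ± 1.41 FPKM in CSF1 and did not pass (limma adjusted p = 0.0623). It was called lower under quantile normalization (0.00352), under median-ratio scaling (0.004) and without WT replicate 3 (0.0498).

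Sialyltransferases cap glycans, not all of them on galactose, and an alpha-2,6 cap on galactose blocks binding of several galectins. Those listed had WT means of at most 4.73 FPKM. Of 12, 6 were tested: 3 rose, 0 fell and 3 missed the threshold. Those that missed were St3gal3, St3gal5 and St6galnac4 (limma adjusted p = 0.548, 0.222 and 0.0859). St6galnac4 passed without CSF1 replicate 3, as higher (limma adjusted p = 0.0327), and St3gal5 under quantile normalization, as lower (0.0192). St3gal4 rose from 0.555 ± 0.291 to 6.995 ± 0.97 FPKM, with a limma adjusted p of 9.26e-05 and a log2 change of 2.37 ± 0.21. St3gal6 rose from 0.206 ± 0.157 to 3.25 ± 1.66 FPKM and St6galnac2 from 0.16 ± 0.196 to 2.06 ± 0.3005 FPKM (limma adjusted p = 0.0023 and 0.00202). St6gal1, the main alpha-2,6 enzyme of N-glycans, was below the filter, at 0, 0.104 and 0 FPKM (WT) against 0.804, 0.661 and 1.28 FPKM (CSF1). The median log2 change of the 6 was 1.18, and the list's members near 0 in WT were tested only where high in CSF1.

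Of 21 glycoproteins described as galectin counter-receptors, 18 were tested: 12 rose, 2 fell and 4 missed the threshold, with a median log2 change of 1.53. Of the 12 that rose, 7 had a WT mean under 1 FPKM and were tested only because they were high in CSF1, so the count and the median lean upward. These were Clec7a, Cd40, Trem2, Havcr2, Ptprc, Muc1 and Lrp1. The largest rise was that of Clec7a, the dectin-1 gene of myeloid cells, which was at 0, 0 and 0.998 FPKM (WT) against 36.8, 28.0 and 93.3 FPKM (CSF1) (log2 change 5.22 ± 0.45, limma adjusted p = 8.18e-05). Cd44, the hyaluronan receptor, rose from 1.42 ± 0.551 to 33.02 ± 10.4 FPKM (limma adjusted p = 2.66e-05). Cd40, which antigen-presenting cells and inflamed epithelium use, was at 0.299, 0.186 and 0.0266 FPKM (WT) against 2.10, 5.54 and 23.4 FPKM (CSF1), and its limma adjusted p was 0.0102 (0.119 with no filter). Trem2, a macrophage lipid receptor gene, reached 2.28, 5.03 and 23.7 FPKM in the CSF1 libraries, with a limma adjusted p of 0.0214, and was no longer called without WT replicate 3 (0.069) or WT replicate 5 (0.0743), with a pseudocount of 5 (0.0671), with no filter (0.176) or under quantile normalization (0.0627). Clec7a, Trem2 and Cd40 were highest in CSF1 replicate 8, which also had the highest macrophage sum, and the part of macrophages in their rises was not tested. The genes that fell were P4hb and Mertk. P4hb encodes protein disulfide isomerase, a partner of galectin-9 at the T cell surface, and fell from 1126 ± 213 FPKM in WT to 554 ± 72.1 FPKM in CSF1, with a log2 change of -1.01 ± 0.17 and a limma adjusted p of 0.00272. Mertk, a receptor for apoptotic cells, fell from 5.03 ± 1.31 to 2.196 ± 1.12 FPKM (limma adjusted p = 0.04), a call lost without WT replicate 3 (0.125), WT replicate 8 (0.107), CSF1 replicate 5 (0.067) or CSF1 replicate 8 (0.0814), or with no filter (0.191). Lamp1, a heavily glycosylated lysosomal membrane protein that galectin-3 binds, was at 210.4, 299.7 and 364 FPKM (WT) against 296, 345 and 317 FPKM (CSF1) and did not pass (limma adjusted p = 0.572). Havcr2, which encodes the galectin-9 receptor Tim-3, rose from 0.0857 ± 0.118 to 2.41 ± 1.39 FPKM (limma adjusted p = 0.00455, and 0.0556 under quantile normalization). Tfrc, called higher (limma adjusted p = 0.0324), lost its call without WT replicate 3 (0.098), WT replicate 8 (0.0836), CSF1 replicate 3 (0.0857) or CSF1 replicate 5 (0.0914). The call was also lost with no filter (0.0677), under median-ratio scaling (0.085) and under quantile normalization (0.34). Muc1 and Nrp1 lost theirs with no filter (limma adjusted p = 0.0677 and 0.0855) and under quantile normalization (0.106 and 0.0511).

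Of 22 genes of the response to broken endosomes and lysosomes, in which galectin-3 and galectin-8 act as sensors, 19 were tested: 3 rose, 0 fell and 16 missed the threshold. Their median log2 change was 0.30. Ctsb, a lysosomal protease gene, rose from 24.2 ± 5.32 to 140.9 ± 64.4 FPKM, with a limma adjusted p of 0.000501 and a log2 change of 2.43 ± 0.30. It was at 102, 105 and 215 FPKM in the CSF1 libraries, highest in replicate 8 like the macrophage sum, and the part of macrophages in its rise was not tested. Tax1bp1, an autophagy receptor gene, rose from 119.97 ± 7.07 to 305 ± 58.9 FPKM, with a limma adjusted p of 0.000535 and a log2 change of 1.32 ± 0.16. Pdcd6ip, which encodes the membrane repair protein ALIX that galectin-3 recruits, rose from 27.8 ± 4.19 to 41.7 ± 1.61 FPKM (limma adjusted p = 0.0155), a call lost without WT replicate 5 (0.0655). Trim16, the galectin-3 partner in lysosome repair, was at 21.03, 18.1 and 29.5 FPKM (WT) against 26.9, 26.6 and 30.2 FPKM (CSF1) and did not pass (limma adjusted p = 0.257). Calcoco2, the autophagy receptor gene that human galectin-8 recruits, was listed at 0 in WT and at no more than 0.0396 FPKM in CSF1. Ctsd, another lysosomal protease gene, passed under the replicate block alone (limma adjusted p = 0.0491, and 0.154 without the block).

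**Figure D4:**
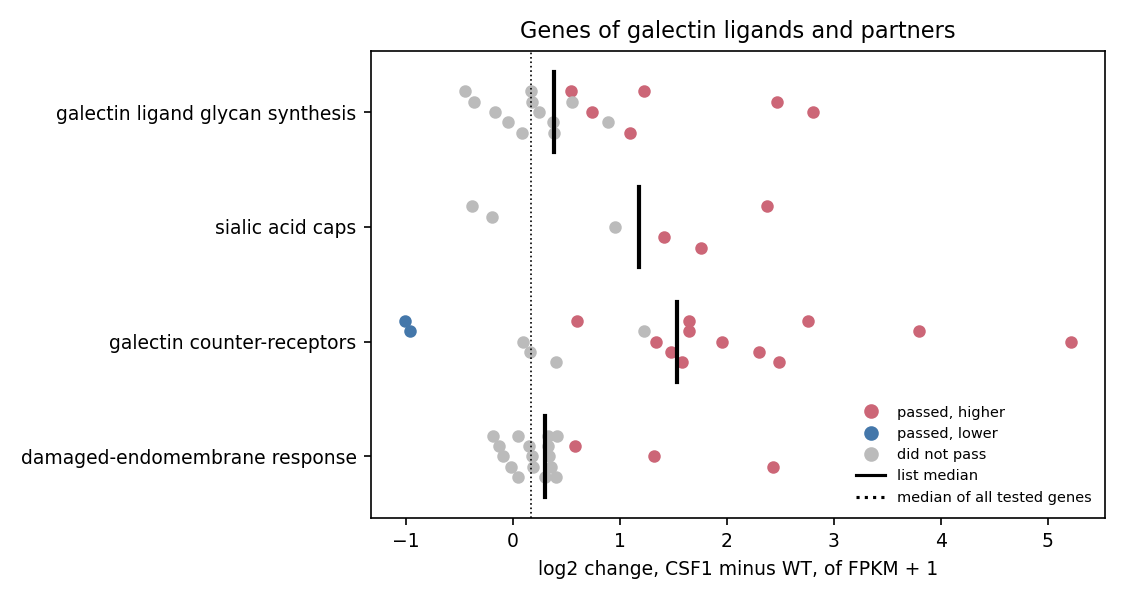
Each point is a tested gene of a list, placed by its log2 change (CSF1 minus WT, of FPKM + 1) on the horizontal axis and coloured by limma's call; solid ticks are list medians and the dotted line is the median of all tested genes, 0.17. Points of the counter-receptor list reach 5.22 (Clec7a), and most genes of the glycan synthesis and damaged-endomembrane lists lie near the dotted line.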

How the data were processed

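RNA sequencing was done on 3 WT and 3 CSF1 libraries. The SMART-Seq v4 kit, with random and oligo-dT priming, gave the cDNA per the labels' protocols, in which both Nextera XT and TruSeq DNA are named for library construction. Per the submitters' processing notes, bcl2fastq 1.8.3, TopHat and Cufflinks were used with mm10. The authors deposited a table of isoforms for each library, with 34535 transcripts, whose FPKM values and confidence bounds come from Cufflinks per the file headers. The deposited coverage signal is a constant times FPKM in each table (2.72 to 3.50 in WT, 4.17 to 5.01 in CSF1), so the CSF1 libraries were deeper. The number of fragments behind a value is not given.

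FPKM was summed by symbol. Left out were 9 genes, none of them a member, that Cufflinks had skipped or failed in some library. The 10951 genes averaging 1 FPKM or more were tested as log2(FPKM + 1) with limma 3.58.1 in R 4.3.3 (with the data.table package at version 1.17.8), using an intensity trend and two-sided p-values, which were Benjamini-Hochberg adjusted and called under 0.05. The fit was tested on simulated data. Members and gene lists were chosen with earlier results of these data known, and so was the motif search. Genes named were all members and other galectin family genes, the 4 largest called changes of each list, called genes in counts of 5 or fewer, and the 3 most alike genes of the 3 most abundant members. Marker genes, Mgat5, St6gal1, Lamp1, Havcr2, Ptprc, Muc1, Lrp1, Trim16, Calcoco2, the sialyltransferases that missed the threshold, and the genes whose calls moved under the block, were named beyond this rule after their values were seen. So were C1galt1, C1galt1c1, Nrp1, Tfrc, Map1lc3b and Vcp, whose calls moved under other settings. Alternatives were another pseudocount, filter, scaling or variance trend, a replicate block, and leaving out each library.

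The numbers 3, 5 and 8 pair the libraries by their values only: over 10951 genes, deviations from the group means correlated between same-numbered WT and CSF1 libraries at 0.26, 0.11 and 0.18, and at -0.23 to -0.01 between differently numbered ones. A further cell type marker is not reported here.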

Additional observations from a re-analysis of the deposited data

How the results depend on the processing

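Of all genes tested, 2731 were higher and 818 lower in CSF1 by limma. With quantile normalization 1694 were higher and 2362 lower, with median-ratio scaling 1677 were lower, with no filter 451 were lower, and with a minimum mean of 5 FPKM 1761 were higher. Leaving out 1 library gave 2053 to 2489 higher and 478 (without WT replicate 5) to 850 lower genes, and 526 without WT replicate 8. With the replicate block 2883 were higher and 890 lower, and beyond Man2a2, B3gnt7 and Ctsd the block changed no call of the 4 lists. Called glycan synthesis genes went from 6 to 3 with the 5 FPKM minimum, which tests fewer genes. Called counter-receptors went from 14 to 9 with no filter, 7 with the 5 FPKM minimum and 9 with quantile normalization. Called sialyltransferases went from 3 to 6 with no filter, and none was tested at the 5 FPKM minimum. Called damaged-endomembrane genes went from 3 to 5 with median-ratio scaling. The genes gained, Map1lc3b and Vcp, were called lower in CSF1 (limma adjusted p = 0.0377 and 0.0438). Vcp was also called lower with quantile normalization (limma adjusted p = 0.0484). The causes of these shifts in the counts were not tested. No called gene of the lists changed sign. Lgals8 turned to -0.047 with quantile normalization. Over all alternatives, log2 changes ran from 3.48 to 4.61 for Lgals1, 2.98 to 3.42 for Lgals3, 1.85 to 2.33 for Lgals3bp, 2.77 to 4.21 for Lgals9, 1.93 to 4.31 for Lgals7 and -0.72 to -0.10 for Lgals4.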
